A study of Mus musculus with 9 samples.

Results

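Transcripts of 10 genes that specify or mark trophoblast, the outer lineage of the mouse blastocyst, were followed in embryonic stem cells without RING1B or with catalytically inactive RING1B. They are the transcription factor genes Cdx2, Eomes, Elf5, Hand1, Gata3, Ascl2, Tfap2c and Tead4 and the keratin genes Krt8 and Krt18, chosen by name from the 21679 genes that have a probe on the array and in the deposited series table. All 10 were found, with 12 probes in all, because Eomes and Hand1 have 2 probes each. The probe with the highest mean signal over the 9 arrays stands for a gene, and the other probe is given beside it.

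RNA was measured on 1 single-colour array per sample. The cells were mouse embryonic stem cells (mESCs) of the male E14Tg2a line, strain 129P2/OlaHsd, grown on gelatin with serum and leukaemia inhibitory factor. The 3 groups of 3 samples were the parental cells (WT), Ring1B-/- cells in which exon 3 of the gene is deleted on both alleles (KO), and Ring1B I53A/I53A cells, in which both endogenous alleles encode alanine instead of isoleucine at position 53 (I53A). Both mutants were made from the same parental line and share its culture conditions. The KO columns of the deposited table all carry the same line code, and no further line of either mutant is described for the arrays, so a line and its mutation cannot be told apart. The samples of a group are described as biological replicates. What separated them (cultures, passages or extractions) is not given in the sources used here, so the p-values speak for the spread of these samples alone.

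RING1B is the main E3 ligase subunit of Polycomb repressive complex 1 (PRC1), which marks histone H2A with ubiquitin and holds developmental genes silent in mESCs, and the I53A protein is built into PRC1 without that ligase activity. Trophoblast arises when cells on the outside of the embryo keep YAP in the nucleus, where it acts with TEAD4 to switch on Cdx2 and Gata3. CDX2, EOMES, ELF5 and TFAP2C then sustain trophoblast stem cells, ASCL2 and HAND1 act in their differentiated descendants, and keratins 8 and 18 form the intermediate filaments of this first epithelium. mESCs rarely make trophoblast, and many regulators of other lineages are held silent in them by Polycomb complexes.

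Rnf2, the gene of RING1B, had 1 probe, at 8.35 ± 0.11 in the WT, 7.78 ± 0.39 in the KO and 8.79 ± 0.27 in the I53A arrays. Group values here are mean log2 signals ± SD of 3 arrays. That probe could not be placed relative to the deleted exon and so does not check the labels. The mESC marker Pou5f1 was well above background on all 9 arrays, at 13.44 ± 0.16, 13.24 ± 0.25 and 13.67 ± 0.06 in WT, KO and I53A. Esrrb and Sox2, also mESC markers, had lower values in both mutants. Esrrb did not reach a limma adjusted p of 0.05 in either (0.238 in KO, 0.213 in I53A). In the same order Esrrb read 11.96 ± 0.45, 11.04 ± 0.49 and 10.55 ± 0.63, and Sox2 9.09 ± 0.18, 8.06 ± 0.15 and 8.36 ± 0.35. Of 16 pluripotency genes, 4 were higher and 4 lower in KO than in WT at an unadjusted limma p under 0.05 (10.0% and 8.31% of all genes). In I53A 0 were higher and 6 lower (5.83% and 3.95%). Tbx3, of the same list, rose in KO whichever single array was left out (log2 fold change 1.67 to 1.97, limma adjusted p 0.00598 to 0.0253). Of the fixed trophoblast markers, the spongiotrophoblast gene Tpbpa was at background on all 9 arrays. Not all trophoblast genes beside the 10 were silent, since Plet1 was well above background on every array. Its log2 fold change against WT was 1.42 for KO (limma adjusted p 0.0846) and 1.32 for I53A (adjusted p 0.298), so neither reached 0.05. Between 45.5% and 57.5% of the 30170 probes tested were well above background on an array, and this and the 3 arrays per group limit the precision. Each group had its own column of the slides, so slide column and group cannot be told apart.

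Promoter sequences were available from RefSeq for 7 of the 10 genes, and those of Ascl2 and Eomes, which rose in KO, and of Krt8 and Krt18, neighbours whose values were both lower in KO without passing the test, are shown. Hand1, Tfap2c and Tead4 were not matched. Each line is the 250 bases before the start site, 5′ to 3′ on the gene's own strand (GRCm38.p6), with every CG dinucleotide in capitals, since clusters of unmethylated CG mark the CpG islands at which Polycomb complexes gather in mESCs.
Ascl2, chr7:142969265-142969514, minus strand: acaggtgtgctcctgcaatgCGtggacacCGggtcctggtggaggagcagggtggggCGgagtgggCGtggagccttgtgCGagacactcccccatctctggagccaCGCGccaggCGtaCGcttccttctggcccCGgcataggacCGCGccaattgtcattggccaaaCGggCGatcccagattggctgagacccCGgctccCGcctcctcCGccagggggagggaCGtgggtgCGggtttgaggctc
Eomes, chr9:118477939-118478188, plus strand: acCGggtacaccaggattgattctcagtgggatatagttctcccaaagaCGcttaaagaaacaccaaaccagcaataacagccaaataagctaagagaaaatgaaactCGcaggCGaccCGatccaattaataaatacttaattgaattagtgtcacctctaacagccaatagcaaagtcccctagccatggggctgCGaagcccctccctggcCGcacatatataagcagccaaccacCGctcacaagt
Krt8, chr15:102004343-102004592, minus strand: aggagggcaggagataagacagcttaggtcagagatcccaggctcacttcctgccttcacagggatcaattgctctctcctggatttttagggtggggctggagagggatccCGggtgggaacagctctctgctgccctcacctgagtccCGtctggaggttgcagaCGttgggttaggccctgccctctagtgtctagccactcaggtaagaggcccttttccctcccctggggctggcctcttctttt
Krt18, chr15:102027966-102028215, plus strand: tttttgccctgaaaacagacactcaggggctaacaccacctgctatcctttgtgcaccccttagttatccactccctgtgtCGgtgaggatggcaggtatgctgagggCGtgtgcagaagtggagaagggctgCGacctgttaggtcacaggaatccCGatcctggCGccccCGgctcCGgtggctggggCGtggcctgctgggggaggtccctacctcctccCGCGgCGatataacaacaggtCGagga

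The Ascl2 window held 19 CG dinucleotides, as did that of Gata3, and 80.3% of the 32851 RefSeq promoter windows of this length held fewer. Cdx2 had 13, Krt18 12, Eomes 8 and Krt8 3, and the pair of Elf5 windows 2 and 8, beside a median of 6 over all windows. Gata3 and Cdx2 did not pass the test in KO. The windows leave out the bases after the start site, and a link between CG number and the changes was not tested. On either strand, the AP-2 motif GCCNNNGGC, which TFAP2C recognises, was in the windows of Cdx2, Gata3 and Krt18, and 13.7% of all windows hold it. The TEAD motif GGAATG was in 1 Elf5 window (12.6% of all windows) and the GATA motif AGATAA in that of Krt8 (9.99%). The E-box CAGGTG was in those of Elf5, Ascl2, Krt8 and Krt18 (17.2%). The exact letters TATAAA were in none of the 8 (12.4%). Other forms of the TATA box were not searched, and the Eomes window holds TATATAAG. These matches describe the letters of the windows and are not binding sites.

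**Figure D1:**
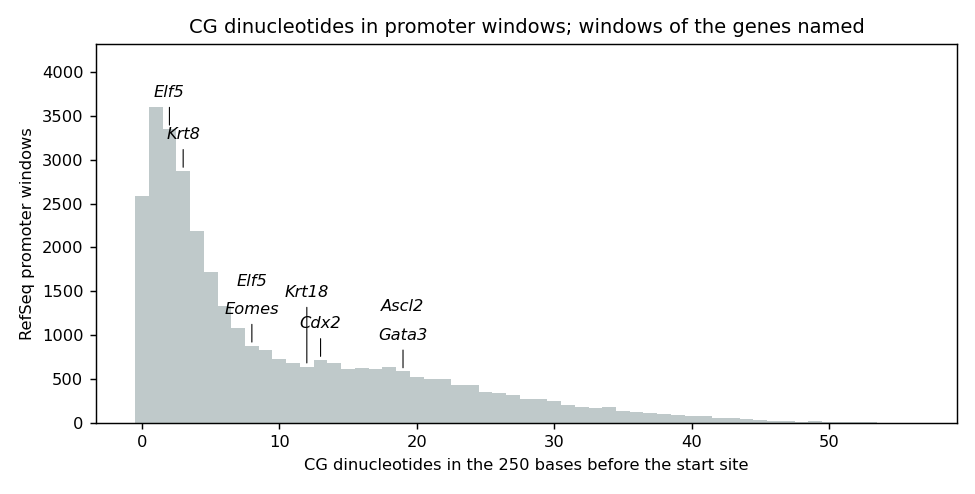
Number of CG dinucleotides (horizontal axis) in the 250 bases before the start site, as a histogram over 32851 RefSeq promoter windows (vertical axis, windows), with the 8 windows of 7 of the genes marked by name. Krt8 and 1 Elf5 window lie in the CG-poor peak and Ascl2 and Gata3, with 19, in the CG-rich shoulder.

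In KO against WT, which asks what RING1B as a whole holds back or sustains, 2 of the 10 genes rose, Ascl2 and Eomes, and none was called lower. A gene was called at a Benjamini-Hochberg adjusted p under 0.05 over all probes in limma and a change of more than 2-fold. Of all 21679 genes, 2.93% were called higher and 1.17% lower in this comparison. Before adjustment of p, 2 of the genes were higher and 4 lower at under 0.05 (Hand1, Tfap2c, Krt8 and Krt18), where 10.0% and 8.31% of all genes were. Their median log2 fold change (log2FC) was −0.04, beside −0.02 over all genes. In a bulk sample, more cells expressing a gene and more RNA per cell cannot be told apart. Besides losing the ligase activity, I53A cells had less RING1B and less of another Polycomb histone mark at target sites, the paper reports. It also describes a moderate drop in the PRC1 subunit RYBP. I53A against WT therefore asks what the mutation as a whole changes, and does not isolate the ligase activity. In it 0 of the 10 were called in limma in either direction (0.291% of all genes called higher, 0.111% lower). At an unadjusted p under 0.05, 2 were higher (Ascl2 and Eomes) and 1 lower (Tfap2c), where 5.83% and 3.95% of all genes were, and the median log2FC was 0.21. Same-numbered WT and I53A arrays deviated together, and with the replicate number as a block 0 of the 10 were again called, while the probes called over the whole array fell from 71 higher and 28 lower to 19 and 6, and to 0 and 0 in limma when only WT and I53A were fitted (before adjustment, p was under 0.05 for 1988 higher and 1407 lower probes). KO against I53A is the test of the difference between the mutants, which both share the WT arrays in their own comparisons. In it 0 genes were called in limma (1.06% of all genes called higher, 0.406% lower), and before adjustment 0 were higher and 3 lower at p under 0.05 (Hand1, Krt8 and Krt18), where 6.33% and 5.39% of all genes were.

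**Figure D2:**
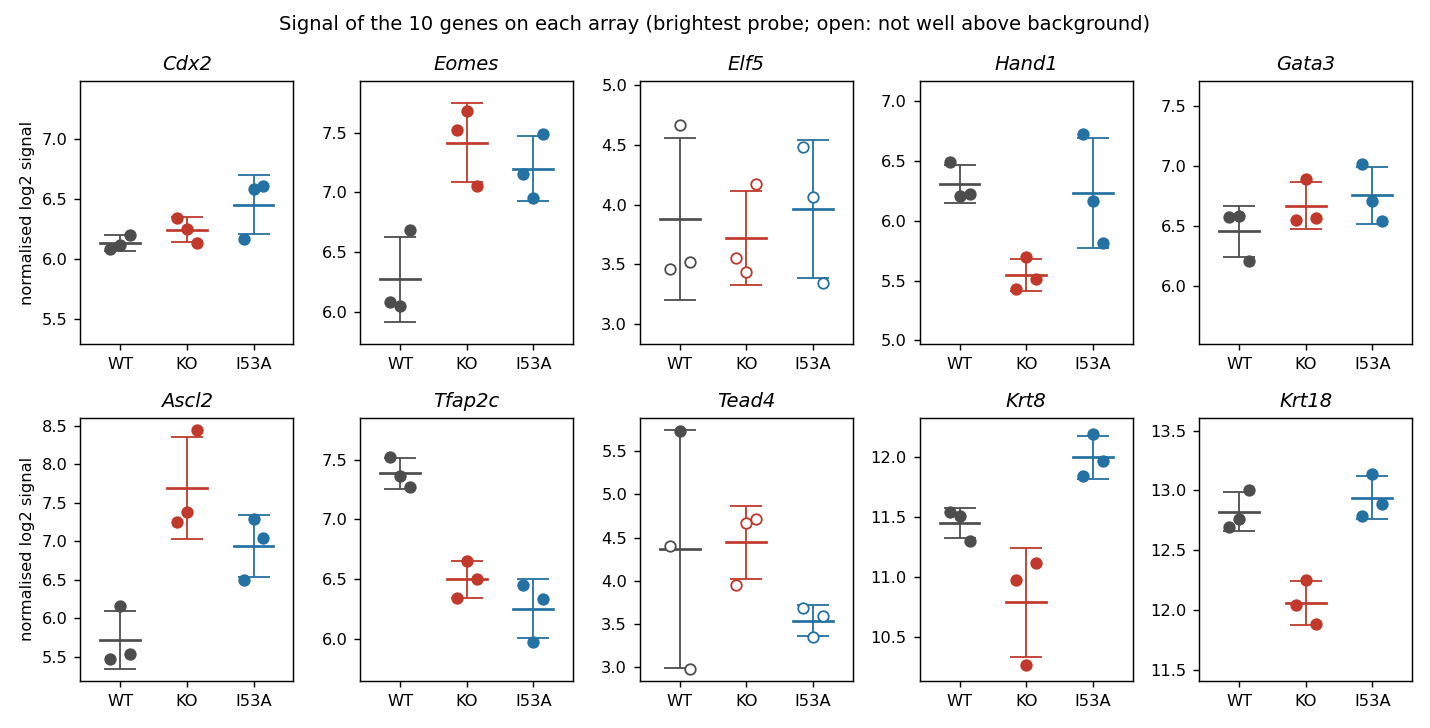
Normalised log2 signal (vertical axis, each panel its own range) of the brightest probe of the 10 genes on each of the 9 arrays, with the group mean and SD (n = 3). Open points are not well above background. Ascl2 and Eomes lie higher in both mutants, Tfap2c lower in both, Hand1, Krt8 and Krt18 lower in KO, and Krt8 higher in I53A. Of these, only the KO values of Ascl2 and Eomes passed the test.

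Of the 10 genes, 8 were well above background on all 3 arrays of at least 1 group, and Elf5 and Tead4 were not. Ascl2 (chromosome 7, 142966822 to 142969264) encodes a basic helix-loop-helix factor needed for the spongiotrophoblast and is imprinted, with the maternal copy active in placenta. It read 5.47, 6.16 and 5.54 in the WT arrays, 7.25, 7.38 and 8.45 in the KO arrays and 6.50, 7.28 and 7.05 in the I53A arrays. Every array of both mutants lay above every WT array, and KO and I53A overlapped. The KO change was the largest among the 10, at a log2FC of 1.97 (SE 0.36, 95% interval 1.17 to 2.78, limma adjusted p 0.0142). The I53A change was 1.22 (interval 0.42 to 2.03) and did not pass (adjusted p 0.276), and the difference between the mutants was 0.75 (interval −0.05 to 1.56, adjusted p 0.485). Without WT 1 or WT 3 the KO call was lost (adjusted p 0.0627 and 0.0642, over leaving out each array 0.0173 to 0.0642), while the log2FC stayed at 1.60 or above. It was also lost with normexp background correction (log2FC 1.06, adjusted p 0.145), on slide 1 alone (2.10, adjusted p 0.117) and with the replicate number as a block in a fit of KO and WT alone (adjusted p 0.094), over settings that ranged from 0.00385 to 0.145. Among the 7 tested genes within 250 kb, several of them of the same imprinted region, none was called in KO or I53A, and only Tssc4, Tspan32 and Cd81 of the 7 were well above background on all KO arrays.

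Eomes (chromosome 9, 118478186 to 118486132) encodes a T-box factor of trophoblast stem cells that also acts in the primitive streak and definitive endoderm. It read 6.08, 6.05 and 6.69 in WT, 7.52, 7.68 and 7.05 in KO and 7.15, 6.95 and 7.49 in I53A. Both mutants lay wholly above WT and overlapped each other. The KO change was called, at a log2FC of 1.14 (SE 0.27, interval 0.53 to 1.75, limma adjusted p 0.0458), and this call was lost when any 1 of the 9 arrays was left out (adjusted p 0.0518 to 0.162, log2FC 1.01 to 1.35). The I53A change was 0.92 (interval 0.31 to 1.53, adjusted p 0.277) and the difference between the mutants 0.22 (interval −0.39 to 0.83, adjusted p 0.865). The second Eomes probe was at background on all 9 arrays (2.24 to 3.69), so the rise rests on 1 probe. The call was kept in 4 of 11 other settings, and normexp gave the lowest value (log2FC 0.70, adjusted p 0.299).

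Markers of other lineages moved with KO beside these genes. Of 15 primitive endoderm markers, 6 were called higher in KO (Gata6, Gata4, Sox17, Col4a1, Sparc and Amn), where 2.93% of all genes were. In I53A limma called 0 (0.291% of all genes higher). At an unadjusted limma p under 0.05, 10 were higher and 1 lower in KO (10.0% and 8.31% of all genes). In I53A 4 were higher and 0 lower (5.83% and 3.95%). Only 6 of the 15 were well above background on all arrays of a group. Of the 6 called genes, Gata4 was above background on 2 KO arrays, Sox17 and Amn on 1 each, and none of these on a WT array, so no size is given for them. Gata6, which specifies primitive endoderm, was above background on 3 of 3 KO arrays but on only 1 of 3 WT arrays, so its log2FC of 2.09 (interval 1.35 to 2.84, limma adjusted p 0.00651) rests on dim WT signals. The defining markers Pdgfra, Dab2 and Sox7 were at background on all 9 arrays. The summed linear signal of the 15, most of it Sparc, ranged from 2519 to 3471 units in WT, 5925 to 7325 in KO and 4188 to 5152 in I53A. Of 16 primitive streak and mesoderm markers only Mesp2, an early mesoderm factor, was called in KO (log2FC 1.81, limma adjusted p 0.0214, and up to 0.0852 on leaving out WT 1, WT 3, KO 1 or KO 3, each of which ended the call). Their summed signal was 513 to 528 units in WT, 566 to 752 in KO and 505 to 621 in I53A. The part of such cells in the Eomes and Ascl2 values was not tested.

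Tfap2c, whose product AP-2 gamma is shared by trophoblast, germ cells and naive pluripotent cells, was lower by value in both mutants. It lies on chromosome 2, 172545678 to 172558622. It read 7.52, 7.36 and 7.27 in WT, 6.34, 6.65 and 6.51 in KO and 6.45, 5.98 and 6.33 in I53A. All 6 mutant arrays lay below all 3 WT arrays, and the mutants overlapped. The log2FC was −0.88 in KO (SE 0.22, interval −1.37 to −0.39, limma adjusted p 0.0537) and −1.13 in I53A (interval −1.62 to −0.64, adjusted p 0.0795), so neither was called. Among the 10 it was the gene with the lowest log2FC in both comparisons, which share the WT arrays. When only probes well above background on all arrays of a group were tested, the same I53A change was called (adjusted p 0.0182, over the settings 0.0155 to 0.395), and the KO change passed the adjusted p (0.0162) but not the fold.

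Cdx2 and Gata3, the earliest regulators downstream of TEAD4, did not pass in any comparison. Cdx2 (chromosome 5, 147300900 to 147307249) read 6.08, 6.11 and 6.202 in WT, 6.34, 6.25 and 6.13 in KO and 6.17, 6.59 and 6.61 in I53A, and all 3 groups overlapped. Its interval was −0.36 to 0.58 in KO and −0.15 to 0.79 in I53A, which leaves out a 2-fold change in either direction (limma adjusted p 0.851 and 0.699). Gata3 (chromosome 2, 9857078 to 9887953) read 6.57, 6.58 and 6.21 in WT, 6.55, 6.89 and 6.56 in KO and 7.01, 6.71 and 6.54 in I53A, with intervals of −0.30 to 0.73 and −0.21 to 0.82. These also lie within 2-fold, and the groups overlapped.

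Elf5, the ETS factor that closes the trophoblast stem cell circuit and is silenced by promoter methylation in mESCs, was at background on all 9 arrays (3.34 to 4.66). Tead4 (chromosome 6, 128227143 to 128300813) was well above background on 1 array, WT 2 (5.73), and read 2.98 to 4.71 on the other WT and KO arrays and 3.34 to 3.68 in I53A. No change can be given for either gene at this signal. Hand1 (chromosome 11, 57828713 to 57832147), a helix-loop-helix factor of trophoblast giant cells and the heart, read 6.49, 6.205 and 6.22 in WT, 5.43, 5.70 and 5.51 in KO and 6.73, 6.16 and 5.81 in I53A. The KO arrays lay below all arrays of both other groups. The changes did not pass, at a log2FC of −0.76 against WT (SE 0.26, interval −1.34 to −0.18, limma adjusted p 0.154) and −0.69 against I53A (adjusted p 0.33). The second Hand1 probe was at background on all 9 arrays (2.32 to 3.43). Over the 1523 tested genes of chromosome 11 the median KO log2FC was 0.26, and the part of this shift in the Hand1 value was not tested.

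Keratins 8 and 18 are obligate partners, a type II and a type I chain that polymerise together, and their genes lie 23.9 kb apart on chromosome 15 (101996711 to 102004342 and 102028216 to 102032026). Krt18 read 12.69, 12.77 and 13.01 in WT, 12.04, 12.25 and 11.88 in KO and 12.79, 13.14 and 12.89 in I53A. All KO arrays lay below all others, and WT and I53A overlapped. Its log2FC was −0.76 in KO against WT (SE 0.22, interval −1.25 to −0.28, limma adjusted p 0.0866), 0.12 in I53A against WT (interval −0.37 to 0.60, adjusted p 0.921) and −0.88 in KO against I53A (interval −1.37 to −0.40, adjusted p 0.1). Krt8 read 11.54, 11.51 and 11.30 in WT, 10.98, 10.27 and 11.12 in KO and 11.84, 12.20 and 11.97 in I53A, so that the groups did not overlap, with KO lowest and I53A highest. Its log2FC was −0.66 (SE 0.26, adjusted p 0.216), 0.55 (adjusted p 0.575) and −1.21 (interval −1.80 to −0.63, limma adjusted p 0.0591) in the same order. None of these was called. KO 2, the lowest Krt8 array, was not the lowest for Krt18, and over the 9 arrays the pair had a Pearson r of 0.73, a description that holds the group differences too. When only probes well above background were tested, Krt8 was called lower in KO than in I53A (adjusted p 0.0163, over the settings 0.0163 to 0.361). With normexp background correction on median signals, Krt18 was called lower in KO than in WT (log2FC −1.08, adjusted p 0.00558, over the settings 0.00558 to 0.366). Of the 20 tested genes within 250 kb of Krt8, many of them other keratins, none was called in KO or I53A, and 15 were well above background on all KO arrays.

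**Figure D3:**
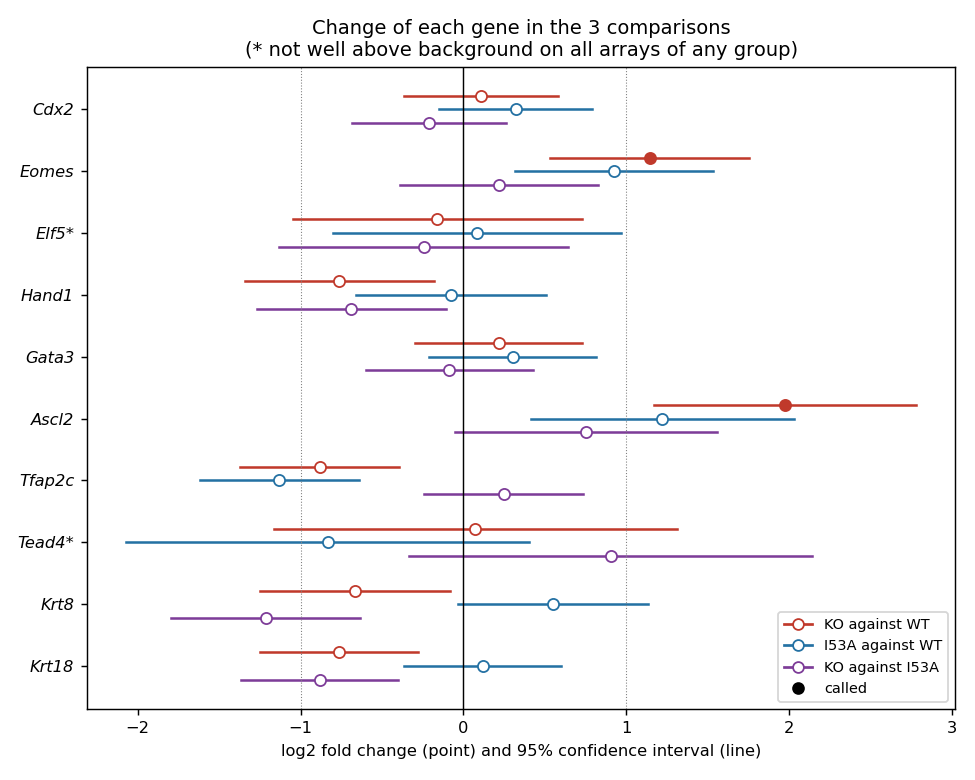
Log2 fold change (point) and 95% confidence interval (line) of each gene in the comparisons of KO with WT, of I53A with WT and of KO with I53A, with called changes filled and dotted lines at a 2-fold change. The 2 filled points are Ascl2 and Eomes in KO against WT. For Krt8 and Krt18 the KO values lie left of 0 and the I53A values right of it.

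Among 17 other keratin genes, only Krt14, of basal skin cells, was called, higher in KO (5.51 ± 0.23 in WT and 6.60 ± 0.40 in KO, log2FC 1.09, limma adjusted p 0.0393, up to 0.132 on leaving out an array). It lost the call without any array but KO 1. Krt14 lies on chromosome 11, whose median KO log2FC was 0.26, and the part of that shift in its value was not tested. The other trophoblast keratins did not pass: Krt7 had a log2FC of 0.04 in KO and 0.46 in I53A, and Krt19 −0.26 and −0.27. Of 19 other epithelial genes, Cldn4, a tight junction protein, was lower in KO (11.57 ± 0.22 in WT, 9.82 ± 0.13 in KO, log2FC −1.75, limma adjusted p 0.0016) and 10.95 ± 0.14 in I53A (log2FC −0.62 against WT, adjusted p 0.386). Its KO level was also lower than that of I53A (log2FC −1.13, adjusted p 0.033), a call lost without any array but WT 2 (up to 0.124). At an unadjusted p under 0.05, 7 of the 19 were lower in KO than in I53A and 0 higher (5.39% and 6.33% of all genes), with a median log2FC of −0.50 beside −0.02 over all genes. Against WT, the same measure gave 2 higher and 5 lower in KO (10.0% and 8.31% of all genes, median log2FC −0.20). In I53A it gave 5 higher and 1 lower (5.83% and 3.95%, median 0.17). Cdh1, the adhesion protein E-cadherin, had a log2FC of −0.61 in KO against WT (adjusted p 0.146) and −0.76 in KO against I53A (adjusted p 0.137), and over the 9 arrays it was among the 3 genes most like Krt18 (Pearson r 0.97 among 9050 genes). This pair was picked after its values were seen.

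The wider trophoblast stem cell list split in KO. Of 21 other genes of that state, 3 were called higher and 2 lower (2.93% and 1.17% of all genes), with a median log2FC of −0.14. The X-linked homeobox genes Rhox6 (5.92 ± 0.11 in WT, 8.65 ± 0.47 in KO, log2FC 2.73, limma adjusted p 0.00166) and Rhox9 (log2FC 2.04, adjusted p 0.024) rose. The third, Esx1, also a placental X-linked homeobox gene, passed the thresholds but was at background on all 9 arrays, so no fold is given. Id2, an inhibitor of helix-loop-helix factors, fell (8.64 ± 0.20 in WT, 7.19 ± 0.20 in KO, log2FC −1.46, limma adjusted p 0.00438), as did Sox2, which acts in both pluripotent and trophoblast stem cells (log2FC −1.03, adjusted p 0.0425). Rhox6 and Id2 were called whichever single array was left out. Rhox9 lost its call (adjusted p up to 0.0832) on leaving out WT 1, WT 3, KO 2 or KO 3, and Sox2 was called only without I53A 2 or I53A 3 (up to 0.151). In I53A against WT limma called 0 of the 21 (0.291% of all genes higher, 0.111% lower). Before adjustment, 3 had a higher and 4 a lower signal at p under 0.05 (5.83% and 3.95% of all genes). KO differed from I53A for Rhox6 (log2FC 1.93, adjusted p 0.024) and Id2 (−1.62, adjusted p 0.00606).

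Of 18 genes of differentiated trophoblast that had a probe, Plac1, an X-linked placental gene, was called in KO. Its signal was not well above background on any WT array (4.86 ± 0.38) and was so on all 3 KO arrays (6.38 ± 0.30), with a log2FC of 1.52 (interval 0.88 to 2.16, limma adjusted p 0.0166; the call was lost on leaving out WT 2, WT 3, KO 2 or KO 3, with a p of up to 0.0642). No WT signal lay under its array's background limit, so the limit leaves the 2.87-fold difference of the means as it is, and the interval gives its error. The labyrinth factor Gcm1 and the lactogen Prl3b1 did not pass, with Prl3b1 above background on 1 of 9 arrays. None of 19 TEAD and Hippo pathway genes was called in limma in any comparison. Before adjustment, p was under 0.05 for 2 higher and 1 lower in KO (10.0% and 8.31% of all genes). The counts were 5 and 1 in I53A (5.83% and 3.95%), and 0 and 3 in KO against I53A (6.33% and 5.39%). Amot had the highest I53A value (log2FC 1.48, limma adjusted p 0.0636) and was well above background on only 1 WT array. The YAP target Ccn2 had a log2FC of 0.42 in KO and 0.91 in I53A, and Ccn1 0.28 and 0.26. Nf2, the upstream Hippo activator Merlin, had the lowest KO value (log2FC −0.98, adjusted p 0.0403, under 2-fold).

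**Figure D4:**
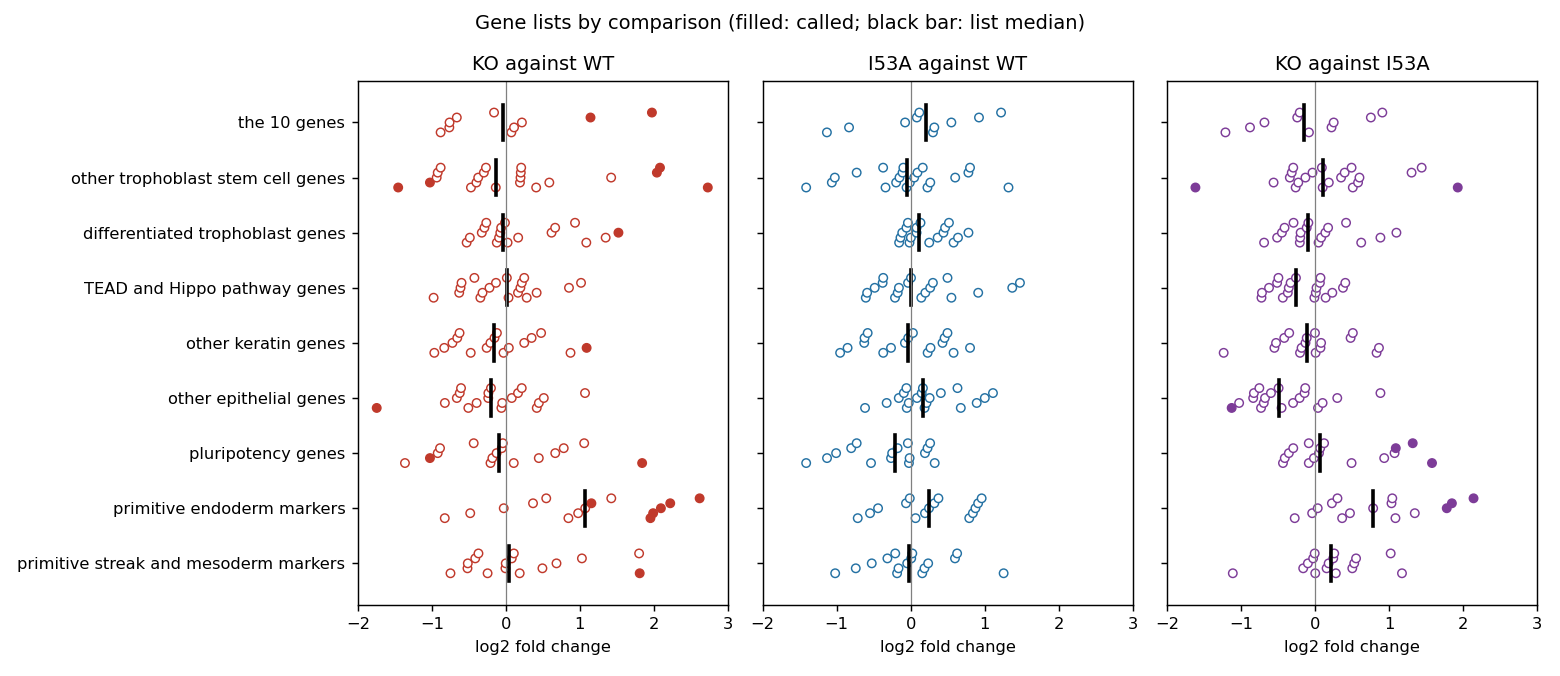
Log2 fold change (horizontal axis) of each measured gene of 9 lists in the same 3 comparisons, with called genes filled and the list median as a black bar. Well above background on all arrays of a group were 6 of the 15 primitive endoderm markers and 18 of the 21 trophoblast stem cell genes, so the lists' medians are not compared, and no gene of any list is filled in I53A against WT.

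Over the 9 arrays, the genes most like Ascl2 were Psme1 (Pearson r 0.98), Ints11 (0.98) and Uqcr11 (0.97), and those most like Eomes were Zfp984 (0.95), Tmem91 (0.95) and Dlk1 (0.94), among 9050 genes well above background on all arrays. Ascl2 and Eomes had an r of 0.65 with each other, and −0.75 and −0.77 with Tfap2c. The arrays share their group differences, so these values describe the pattern over 3 groups more than variation within one.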

How the data were processed

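Per the labels and the study's methods, Cy3-labelled cRNA of 9 samples was hybridised to Agilent SurePrint G3 mouse arrays, scanned, and extracted with Agilent Feature Extraction 11.5.1.1. The deposited scan files hold a processed intensity per spot (linear, background already subtracted by the authors' software). The deposited series table holds log2 intensities that the authors quantile normalised after averaging repeated probes, kept for 30170 probes that map to 1 gene, and the authors' own fold changes and p-values, which were not used. Its 9 value columns show group but no replicate number.

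Here, with R 4.3.3 and limma 3.58.1, control and outlier-flagged spots were left out, processed intensities were log2 transformed, spots of a probe averaged (432 probes have several) and the 9 arrays quantile normalised over 55681 probes. limma was fitted with 1 mean per group over all 30170 probes (6 residual degrees of freedom, two-sided moderated tests, Benjamini-Hochberg over all probes). No spot of the 12 probes was flagged or saturated. The scripts were tested on simulated data. The design named normexp on mean signals. The median signals were used in its place. Of the probes, 26851 have 1 gene symbol, 97 several and 3222 none. Promoters are RefSeq's (GRCm38.p6). Alternatives were 75th percentile scaling, normexp, leaving out dim probes, the authors' normalised values, slide as a block or slide 1 alone, the replicate number as a block, a fit of 2 groups, treat, arithmetic spot means, any probe of a gene, and leaving out each array. For called genes of the other lists these were added after seeing the data.

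Groups and replicate numbers are those of the sample titles; another label of the 3 KO samples gives the number 1 to all. Same-numbered WT and I53A arrays, which share slides, deviated together (correlations 0.21 to 0.39), which pairs these groups by the rule that every pair exceeds 0.1. Those with KO did not (−0.32 to 0.03). A block fitted to 2 groups was added after seeing the data. Named from the other lists were called genes, at most 4 per list and comparison by size of change, and for Ascl2 and Eomes the 3 genes most like them; others named were chosen after their values were seen. The 10 genes and all lists were chosen with earlier results of these data known.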

Additional observations from a re-analysis of the deposited data

Results flagged for a closer look

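The effects of KO and I53A differed in a direct test of KO against I53A (limma, adjusted p under 0.05 and over 2-fold) for 9 genes of the lists beside the 10, and for none of the 10. Of all 21679 genes, 1.06% were called higher and 0.406% lower in this test. Of 21 other trophoblast stem cell genes, Id2 had a log2FC of −1.62 (adjusted p 0.00606) and Rhox6 1.93 (0.024), and of 19 other epithelial genes Cldn4 had −1.13 (0.033). Of 16 pluripotency genes, Tbx3 had 1.58 (adjusted p 0.027), Prdm14 1.09 (0.0383) and Fbxo15 1.32 (0.0208). Of 15 primitive endoderm markers, Gata6 had 1.85 (adjusted p 0.0273), Col4a1 1.78 (0.0134) and Lama1 2.14 (0.0181). Id2 was called whichever single array was left out, and each of the other 8 lost its call without at least 1 array (Rhox6 without KO 2, KO 3, I53A 1 or I53A 2, up to 0.0874). Prdm14 was lower in I53A (5.07 ± 0.25) than in WT (6.197 ± 0.08) and KO (6.16 ± 0.09), and its I53A change against WT was not called (adjusted p 0.0682).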

How the results depend on the processing

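Of the 2 genes called higher in KO, 1 (Ascl2) stayed with 75th percentile scaling, with only the 2 groups compared, with treat at 1.2-fold and with the replicate number as a block, and 0 with normexp on median signals, slide 1 alone, or the replicate block in a fit of the 2 groups compared, an alternative added after seeing the data (before adjustment of p, 2 were higher). Leaving out 1 array gave 0 to 1 (0 without WT 1 or WT 3). Both stayed with slide as a block, the authors' values, dim probes left out, arithmetic spot means and any probe. The count called lower rose from 0 to 1 in KO with normexp (Krt18), and in I53A and in KO against I53A with dim probes left out (Tfap2c, Krt8). No called value changed sign. Over the settings, the log2FC of Ascl2 ran from 1.06 to 2.10 and of Eomes from 0.70 to 1.299, both lowest with normexp. That setting adds an offset of 50 to the signals, and the part of the offset in the lower values was not tested. With the replicate block over all arrays, Eomes had an adjusted p of 0.0976, and in the fit of 2 groups Eomes had 0.201 and Ascl2 0.094. KO 2 lay on slide 1 with WT 2 and I53A 2, while KO 1 and KO 3 lay on another slide than their same-numbered WT and I53A arrays. Of the arrays, 4 of 9 deviate most like their own number. The block changed no call of the 10 in I53A against WT or KO against I53A.

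Over all 30170 probes, 824 were called higher and 335 lower in KO, 71 and 28 in I53A, and 289 and 111 in KO against I53A. Across the other settings these ran from 233 to 896 and 42 to 374, 0 to 183 and 0 to 85, and 45 to 399 and 2 to 180, and on leaving out 1 array from 456 to 792 and 151 to 313, 16 to 62 and 5 to 25, and 147 to 254 and 30 to 72. The causes were not tested.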
